A study of Homo sapiens with 9 samples.

Results

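The genes described here encode the TFEB/TFE3 transcription factors and the lysosomal machinery that senses nutrients and holds these factors in the cytoplasm. The set was given by name as 10 genes: TFEB, TFE3, MITF, FLCN, FNIP1, FNIP2, RRAGA, RRAGC, RRAGD and MTOR. A row with the Entrez gene number was found for 8 of the 10, among 11746 numbered features, and all 8 entered the test. MITF and RRAGD are not analysed here. The libraries came from HepG2, a human liver cancer cell line used as a model of hepatocytes. All cells carried a Cas9 and guide RNA vector (lentiCRISPRv2). The guide was directed at the AAVS1 safe-harbour locus in sgCtrl (treatment sgAAVS168) or at KEAP1 in sgKeap1-1 and sgKeap1-2, with 3 libraries in each of the 3 groups and RNA taken 48 h after seeding. The controls therefore also went through vector delivery and Cas9 cutting. The labels do not say whether libraries of one group came from separate cultures, so p-values measure only the spread between these libraries. QuantSeq libraries count polyadenylated transcripts from their 3′ ends.

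KEAP1 is the adaptor that marks the stress-response factor NRF2 for degradation, and the study asked how its loss acts on the lysosome. TFEB, TFE3 and MITF are basic helix-loop-helix leucine zipper factors of the MiT/TFE family that switch on lysosomal and autophagy genes through E-box type motifs. When amino acids are plentiful, Rag GTPase heterodimers (RRAGA or RRAGB with RRAGC or RRAGD) sit on the lysosome and bring the kinase mTOR there. mTOR then phosphorylates TFEB and TFE3, which stay in the cytoplasm. Folliculin (FLCN) with its partner FNIP1 or FNIP2 activates RRAGC and RRAGD as a GTPase-activating protein, and loss of this complex sends TFEB and TFE3 to the nucleus. That control acts on the location of the proteins, which mRNA counts do not record.

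RefSeq (GRCh38.p14) start-site windows of 300 bases, from 250 before to 50 after the start, were at hand for 8 of the 10 members in 13 windows. RRAGA and RRAGD had none. The 4 printed here are those of the called members with a window, TFE3 and FNIP2, and those of the other members that held a searched motif, FNIP1 and RRAGC. Capitals mark CACGTG, the centre of the motif that MiT/TFE factors recognise, and TGACNNNGC, the core of the antioxidant response element bound by NRF2, both searched on both strands. The coordinates are chrX:49043308-49043607 on the minus strand for TFE3, chr4:158768776-158769075 on the plus strand for FNIP2 (the first of its 2 windows), chr5:131796968-131797267 on the minus strand for FNIP1 and chr1:38859723-38860022 on the minus strand for RRAGC.
TFE3: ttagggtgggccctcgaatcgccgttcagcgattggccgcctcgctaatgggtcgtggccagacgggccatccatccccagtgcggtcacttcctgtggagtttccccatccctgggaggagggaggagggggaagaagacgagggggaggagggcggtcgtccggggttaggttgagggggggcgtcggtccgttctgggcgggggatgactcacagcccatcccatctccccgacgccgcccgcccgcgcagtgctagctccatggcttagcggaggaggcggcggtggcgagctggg
FNIP2: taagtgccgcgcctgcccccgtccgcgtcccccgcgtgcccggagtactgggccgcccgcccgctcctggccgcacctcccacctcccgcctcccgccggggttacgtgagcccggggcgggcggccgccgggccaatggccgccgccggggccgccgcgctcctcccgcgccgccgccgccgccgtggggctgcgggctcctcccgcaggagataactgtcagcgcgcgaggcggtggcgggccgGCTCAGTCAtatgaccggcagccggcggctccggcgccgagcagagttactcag
FNIP1: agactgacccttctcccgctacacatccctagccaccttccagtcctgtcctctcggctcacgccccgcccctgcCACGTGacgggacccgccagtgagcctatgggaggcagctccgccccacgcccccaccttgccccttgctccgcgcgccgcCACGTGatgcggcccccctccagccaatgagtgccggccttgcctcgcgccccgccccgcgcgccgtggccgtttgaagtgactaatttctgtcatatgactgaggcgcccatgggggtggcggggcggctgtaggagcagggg
RRAGC: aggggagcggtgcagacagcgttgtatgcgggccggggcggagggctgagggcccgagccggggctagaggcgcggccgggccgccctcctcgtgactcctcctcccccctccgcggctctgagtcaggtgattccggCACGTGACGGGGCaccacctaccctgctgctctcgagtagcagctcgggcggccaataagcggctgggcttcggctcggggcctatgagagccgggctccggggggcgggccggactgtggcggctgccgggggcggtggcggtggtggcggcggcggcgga

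FNIP1 held CACGTG at positions -175 and -94 from the start. RRAGC held CACGTG at -112 and TGACNNNGC at -108, and these 2 matches overlap. FNIP2 held TGACNNNGC on the opposite strand at -4. No window of TFEB, TFE3, FLCN, MTOR or MITF held either motif. Among 35116 RefSeq windows of this length, 7.26% held CACGTG and 13.3% held TGACNNNGC. The longer palindrome TCACGTGA, present in 0.98% of windows, was in none of the 13. These matches describe letters in a window and not binding.

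The libraries held 3011644 to 4725840 counted reads on numbered features (median 3758185), and 11064 features were tested. The first principal component (43.3% of the variance) parted the 3 sgCtrl libraries from the 6 with a KEAP1 guide, and the second (21.1%) set the replicate 2 libraries apart from sgKeap1-2 replicate 3. The cut gene itself does not check the labels at the mRNA level. KEAP1 normalized CPM (read counts scaled to a common library size) were 63.3, 89.2 and 85.3 in sgCtrl, 64.1, 62.5 and 53.4 with sgKeap1-1, and 81.9, 85.6 and 73.9 with sgKeap1-2. KEAP1 differed from sgCtrl by -0.40 on the log2 scale with sgKeap1-1 (edgeR adjusted p = 0.211) and by 0.02 with sgKeap1-2 (adjusted p = 0.952). Of 6 known NRF2 targets tested, 5 rose with sgKeap1-1 and 6 with sgKeap1-2. Of 8 hepatocyte markers, 5 fell and 1 rose (TTR) with each guide. Of all features, 2.8% rose and 1.4% fell with sgKeap1-1, and 5.96% rose and 4.85% fell with sgKeap1-2. The summed level of the 8 hepatocyte markers was 30038 to 37511 CPM in sgCtrl, 17174 to 21734 with sgKeap1-1 and 14086 to 15809 with sgKeap1-2. The 2 leukocyte markers in the table, CD68 and CD14, summed to between 5.81 and 15.97 CPM, the 2 fibroblast markers to between 6.15 and 15.8 CPM, and the 3 endothelial markers are not analysed here. The part of the marker shift in the results below was not tested.

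In KEAP1 KO cells the clearest movements in this set were a lower FNIP2 and a higher RRAGA, with a higher TFE3 under the second guide. With sgKeap1-2, 3 of the 8 members were called (adjusted p under 0.05 by the quasi-likelihood test of edgeR, Benjamini-Hochberg over all features), TFE3 and RRAGA up and FNIP2 down, where 10.8% of all features were called (5.96% up and 4.85% down). With sgKeap1-1, 0 of 8 were called against 4.2% of all features, and 2, FNIP2 and RRAGA, had an unadjusted p under 0.05 against 15% of all features. limma-voom and DESeq2 also called 0 with sgKeap1-1. With both guides joined, 2 of 8 were called, FNIP2 and RRAGA, against 9.64% of all features. The 8 members had a median log2 fold change of 0.07 for sgKeap1-1 and 0.09 for sgKeap1-2, while that of all features was -0.0006 and -0.014. Both contrasts use the same sgCtrl libraries and are not independent. In bulk RNA, fewer cells with a transcript and less of it per cell cannot be told apart.

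**Figure D1:**
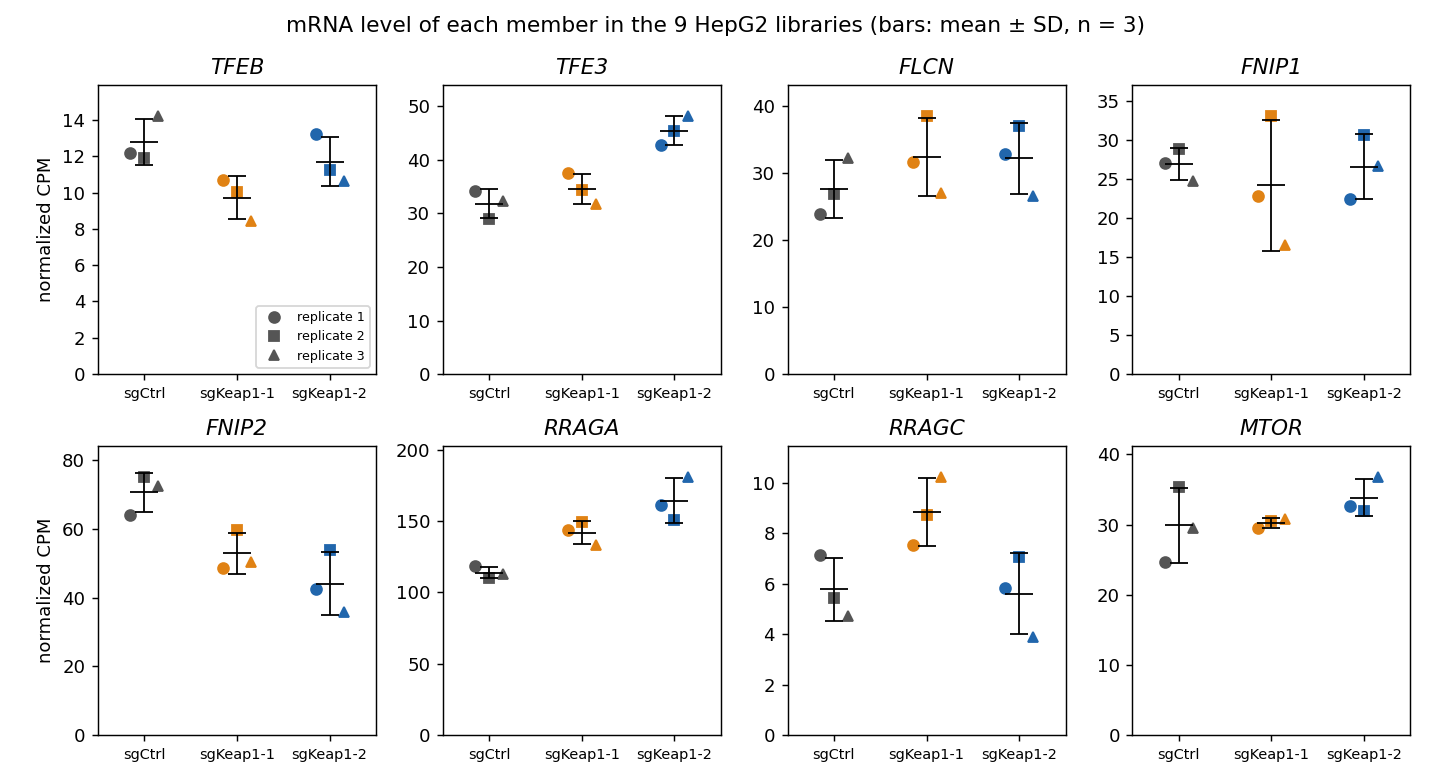
Normalized CPM (y axis, from 0) of the 8 tested members in sgCtrl, sgKeap1-1 and sgKeap1-2 (x axis), 1 symbol per library with the shape giving the replicate number, and mean ± SD (n = 3). All 6 KEAP1 guide libraries lie below sgCtrl for FNIP2 and above it for RRAGA, and the sgKeap1-2 libraries are the highest for TFE3.

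TFEB (Entrez gene 7942), the best known lysosomal factor of the family, was counted at a low level. A lncRNA on the opposite strand shares 115 exonic bases with TFEB, away from its 3′ end. Its normalized CPM were 12.2, 11.9 and 14.2 in sgCtrl, 10.7, 10.02 and 8.41 with sgKeap1-1, and 13.2, 11.2 and 10.7 with sgKeap1-2. Every sgKeap1-1 library was below every sgCtrl library, as in 10.3% of all features, whereas the sgKeap1-2 libraries overlapped both groups. The means were 12.8 ± 1.26 CPM in sgCtrl, 11.7 ± 1.36 with sgKeap1-2 and 9.72 ± 1.18 with sgKeap1-1 (SD, n = 3), and no neighbours in that order differed by the test. Against sgCtrl, the log2 fold change of TFEB was -0.39 for sgKeap1-1 (SE 0.22, adjusted p = 0.465) and -0.13 for sgKeap1-2 (SE 0.22, adjusted p = 0.789). With 32 to 51 reads per library, the 95% interval of the fold change reached from 0.546 to 1.06 for sgKeap1-1 and from 0.655 to 1.27 for sgKeap1-2.

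TFE3 (Entrez gene 7030), which overlaps with TFEB in its targets, was at 34.2, 28.9 and 32.3 CPM in sgCtrl, 37.5, 34.4 and 31.8 with sgKeap1-1, and 42.8, 45.4 and 48.2 with sgKeap1-2. The sgKeap1-2 libraries were above all others, and the first 2 groups overlapped. All sgKeap1-2 libraries above all sgCtrl libraries was seen in 14.3% of features, and above all sgKeap1-1 libraries in 5.5%. The level rose with sgKeap1-2 by a log2 fold change of 0.51 (SE 0.15, adjusted p = 0.0442), from 31.8 ± 2.67 to 45.5 ± 2.71 CPM (SD, n = 3). With sgKeap1-1 the mean was 34.6 ± 2.85 CPM and the log2 fold change 0.12 (SE 0.15, adjusted p = 0.818). The difference between the guides was 0.39 (SE 0.15), with an unadjusted p of 0.0195 and an adjusted p = 0.915 from edgeR. This call is close to the threshold. It was lost without sgCtrl replicate 1 (adjusted p = 0.0848), replicate 2 (0.145) or replicate 3 (0.117), without sgKeap1-1 replicate 1 (0.0601) or replicate 3 (0.0549), and without sgKeap1-2 replicate 1 (0.0768), replicate 2 (0.0935) or replicate 3 (0.0891), while the log2 fold change stayed between 0.45 and 0.57. With only the 2 groups in the fit the adjusted p was 0.0681.

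FLCN (Entrez gene 201163), the catalytic partner in the folliculin complex, was at 23.8, 26.9 and 32.3 CPM in sgCtrl, 31.7, 38.6 and 27.1 with sgKeap1-1, and 32.9, 37.1 and 26.7 with sgKeap1-2. All 3 groups overlapped. FLCN had a log2 fold change of 0.23 for sgKeap1-1 (SE 0.20, adjusted p = 0.683) and 0.22 for sgKeap1-2 (SE 0.20, adjusted p = 0.574). The 95% interval of the fold change ran from 0.877 to 1.57 and from 0.867 to 1.56. GENCODE v44lift37 lists a protein-coding model on the same strand that shares 1161 exonic bases with FLCN, away from its 3′ end.

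FNIP1 (Entrez gene 96459), one of the 2 scaffold partners of FLCN, was at 27.0, 28.9 and 24.8 CPM in sgCtrl, 22.9, 33.1 and 16.6 with sgKeap1-1, and 22.5, 30.7 and 26.7 with sgKeap1-2. The sgKeap1-1 libraries spanned the range of the other groups, with an SD of 8.35 CPM against 2.05 CPM in sgCtrl (n = 3). Its log2 fold change came to -0.14 for sgKeap1-1 (adjusted p = 0.863) and -0.01 for sgKeap1-2 (adjusted p = 0.987). FNIP1 passed no test here. A protein-coding model on the same strand shares 281 exonic bases with FNIP1, also away from its 3′ end.

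FNIP2 (Entrez gene 57600), the other partner of FLCN, moved down. It was at 64.1, 75.2 and 72.5 CPM in sgCtrl, 48.7, 59.7 and 50.2 with sgKeap1-1, and 42.5, 53.9 and 35.9 with sgKeap1-2. All 6 KEAP1 guide libraries were below all 3 sgCtrl libraries, as in 6.74% of features. The groups ordered as sgCtrl (70.6 ± 5.77 CPM), sgKeap1-1 (52.9 ± 5.95) and sgKeap1-2 (44.1 ± 9.13; SD, n = 3), and the guides overlapped. FNIP2 fell with sgKeap1-2 by 0.68 on the log2 scale (SE 0.17, adjusted p = 0.0168). With both guides joined it fell by 0.54 (SE 0.15, adjusted p = 0.0297), which is a fold change of 0.688. With sgKeap1-1 alone the log2 fold change was -0.41 (SE 0.16, unadjusted p = 0.0242, adjusted p = 0.230 from edgeR), and between the guides it was -0.26 (adjusted p = 0.986). The sgKeap1-2 call was lost without sgCtrl replicate 2 (adjusted p = 0.0579), sgCtrl replicate 3 (0.0650) or sgKeap1-2 replicate 1 (0.0637). The joint call was lost without sgCtrl replicate 1 (0.0592), replicate 2 (0.107) or replicate 3 (0.121), without sgKeap1-1 replicate 1 (0.0547) and without sgKeap1-2 replicate 1 (0.0691).

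**Figure D2:**
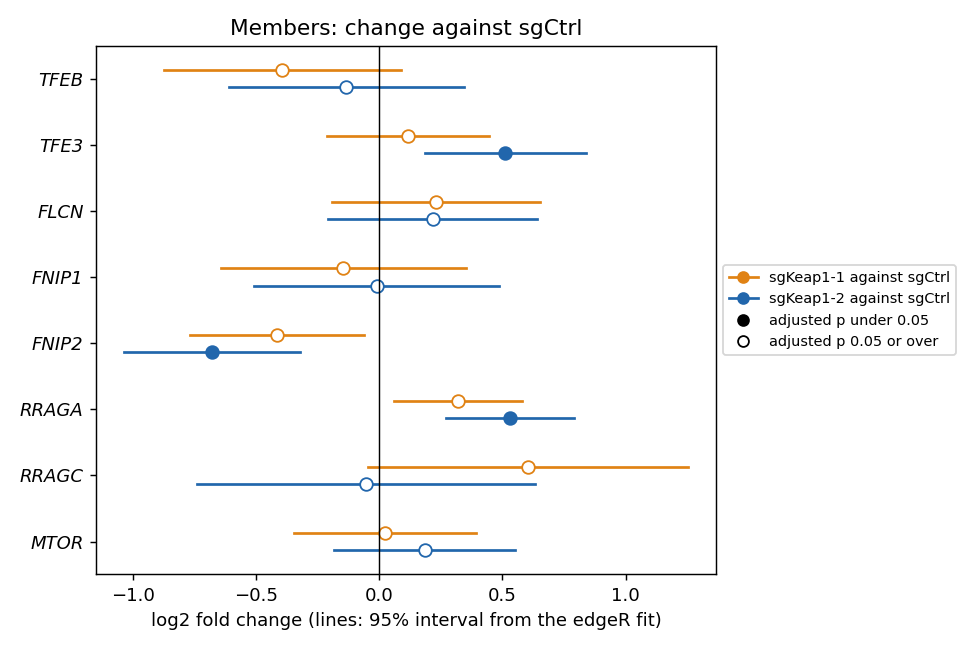
Log2 fold change (x axis) of each member (y axis) for sgKeap1-1 and sgKeap1-2 against sgCtrl, with lines for the 95% interval of the edgeR fit and filled points where the adjusted p was under 0.05. The filled points are TFE3 at 0.51, FNIP2 at -0.68 and RRAGA at 0.53, all with sgKeap1-2.

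RRAGA (Entrez gene 10670), which encodes the RagA GTPase that recruits mTOR, lies on chromosome 9 from 19049425 to 19051023 on the plus strand (GRCh37, GENCODE v44lift37), where the annotation lists no overlapping gene. Its CPM were 118.2, 110.2 and 112.7 in sgCtrl, 143.7, 149.0 and 132.8 with sgKeap1-1, and 161.3, 150.5 and 181.0 with sgKeap1-2. All 6 KEAP1 guide libraries were above all sgCtrl libraries, as in 8.04% of features, and the sgKeap1-2 libraries were also all above the sgKeap1-1 libraries, as in 5.5%. RRAGA rose with sgKeap1-2 by a log2 fold change of 0.53 (SE 0.12, adjusted p = 0.0112), from 113.7 ± 4.07 to 164.3 ± 15.5 CPM (SD, n = 3). With both guides joined the log2 fold change was 0.43 (SE 0.12, adjusted p = 0.0268). With sgKeap1-1 it was 0.32 (SE 0.12, unadjusted p = 0.0199, adjusted p = 0.206 from edgeR), and between the guides 0.21 (adjusted p = 0.986). The sgKeap1-2 call was lost only without sgCtrl replicate 3 (adjusted p = 0.0511) among the 9 libraries left out in turn. The joint call was lost without sgCtrl replicate 1 (0.0801), replicate 2 (0.0948) or replicate 3 (0.111) and without sgKeap1-2 replicate 1 (0.0608), and when all 3 replicate 2 libraries were left out (0.104). RRAGB encodes a near-identical GTPase and was counted at 1.31 to 4.62 CPM. For RRAGB the log2 fold change was -0.74 under sgKeap1-1 (adjusted p = 0.552) and 0.21 under sgKeap1-2 (adjusted p = 0.842).

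RRAGC (Entrez gene 64121), the GTPase on which the folliculin complex acts, was near the low end of the table, with 16 to 40 reads per library. It was at 7.15, 5.44 and 4.74 CPM in sgCtrl, 7.55, 8.71 and 10.3 with sgKeap1-1, and 5.85, 7.07 and 3.88 with sgKeap1-2. The sgKeap1-1 libraries were above all libraries of both other groups, by a narrow margin over the highest sgCtrl value. All sgKeap1-1 above all sgCtrl libraries held for 11.5% of features, and all sgKeap1-2 below all sgKeap1-1 libraries for 4.93%. RRAGC had a log2 fold change of 0.60 for sgKeap1-1 (SE 0.30, adjusted p = 0.389) and -0.05 for sgKeap1-2 (SE 0.32, adjusted p = 0.946). Between the guides it was -0.66 (SE 0.30, unadjusted p = 0.0463, adjusted p = 0.968 from edgeR). GENCODE v44lift37 lists a lncRNA on the same strand that shares 1183 exonic bases with RRAGC but does not reach its 3′ end.

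MTOR (Entrez gene 2475), the kinase itself, was at 24.6, 35.4 and 29.6 CPM in sgCtrl, 29.5, 30.5 and 30.8 with sgKeap1-1, and 32.6, 31.9 and 36.8 with sgKeap1-2. Each KEAP1 guide group overlapped sgCtrl. All sgKeap1-2 libraries were above all sgKeap1-1 libraries, as in 5.5% of features. MTOR had a log2 fold change of 0.02 for sgKeap1-1 (adjusted p = 0.974) and 0.19 for sgKeap1-2 (adjusted p = 0.585). Between the guides it was 0.16 (adjusted p = 0.986 from edgeR). MTOR-AS1 and ANGPTL7 lie on the opposite strand with shared exonic bases away from the 3′ end of MTOR, and whether counting used the strand is not given in the sources used here.

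Between the 2 guides, 0 of 8 members were called by edgeR, limma-voom and DESeq2 alike, where edgeR called 0.0181% of all features. TFE3 and RRAGC had an unadjusted p under 0.05, against 5.08% of all features. Within the folliculin complex FNIP2 fell with sgKeap1-2 while FLCN and FNIP1 passed no test, and within the Rag GTPases RRAGA rose with sgKeap1-2 while RRAGB and RRAGC passed no test. The difference in change between members was not tested. Across the 9 libraries, log2 CPM of TFE3 correlated with that of RRAGA at a Pearson r of 0.87 and with that of FNIP2 at -0.81, as a description over libraries that share 3 groups. After the group means were subtracted these were 0.61 and -0.40. The pair of members with the largest r in size was FNIP2 with RRAGA, at -0.92, and -0.61 after subtraction. The largest after subtraction was FLCN with FNIP2, at 0.81, while its r over the 9 libraries was -0.006.

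The rest of the nutrient-sensing pathway was described by a list of 50 other genes, of which 44 were tested. The list spans the Ragulator scaffold, the subunits of mTORC1 and mTORC2, and the GATOR1, GATOR2 and KICSTOR complexes. The amino acid sensors, RHEB and the TSC complex belong to it as well. It also holds RRAGB and TFEC, and genes for TFEB kinases, phosphatase and export (STUB1 and ZKSCAN3 among them). The ubiquitin ligase genes of FNIP1 complete it. With either guide, with both joined and between the guides, 0 of the 44 were called by edgeR, where 4.2%, 10.8%, 9.64% and 0.0181% of all features were called with sgKeap1-1, with sgKeap1-2, with both joined and between the guides. An unadjusted p under 0.05 was found for 5 with sgKeap1-1 (15% of all features), 5 with sgKeap1-2 (23.3%), 6 with both joined (22.4%) and 2 between the guides (5.08%). DESeq2 called 0 with sgKeap1-1, 1 with sgKeap1-2, 1 with both joined and 0 between the guides, where it called 571, 1288, 1240 and 19 of all 11064 features. The edgeR count was 1 with sgKeap1-2, and 1 with both joined, without sgKeap1-2 replicate 2 or without sgKeap1-2 replicate 3. Of all features, 915 and 1255 were then called with sgKeap1-2, and 868 and 1259 with both joined. The medians were 0.11 with sgKeap1-1 and 0.12 with sgKeap1-2. With the replicate number as a block, 2 were called higher with sgKeap1-1, where 8.83% of all features were called. They were RICTOR, the defining subunit of mTORC2 (block log2 fold change 0.66, block adjusted p = 0.0432), and SESN3, a sestrin that restrains mTORC1 (1.44, block adjusted p = 0.0346). With sgKeap1-2 the block called 3, where 17.7% of all features were called: RICTOR (block log2 fold change 0.85, block adjusted p = 0.00459) and LAMTOR4 (0.47, block adjusted p = 0.0484) higher, and SESN1, another sestrin, lower (-0.62, block adjusted p = 0.0365). With both joined it called RICTOR and LAMTOR5, where 14.5% of all features were called. These genes were named after their values were seen. SESN3 rested on 5 to 33 reads per library, with 10, 5 and 10 in sgCtrl and 32, 33 and 17 with sgKeap1-1. It passed the filter mainly through the libraries where it is high, so no conclusion is drawn from its block call. The log2 fold changes of the 5 Ragulator genes, which anchor the Rag GTPases to the lysosome, were 0.11 to 0.36 with sgKeap1-1. With sgKeap1-2 they were 0.12 to 0.47. Without the block 0 of 5 were called, against 4.2% and 10.8% of all features. Values above 0 were also found for 5523 and 5348 of all 11064 features with sgKeap1-1 and sgKeap1-2. In KICSTOR 4 of 4 genes were above 0 with sgKeap1-1 and 3 with sgKeap1-2. Of 7 tested genes of the mTOR complexes, 4 and 7 were above 0.

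**Figure D3:**
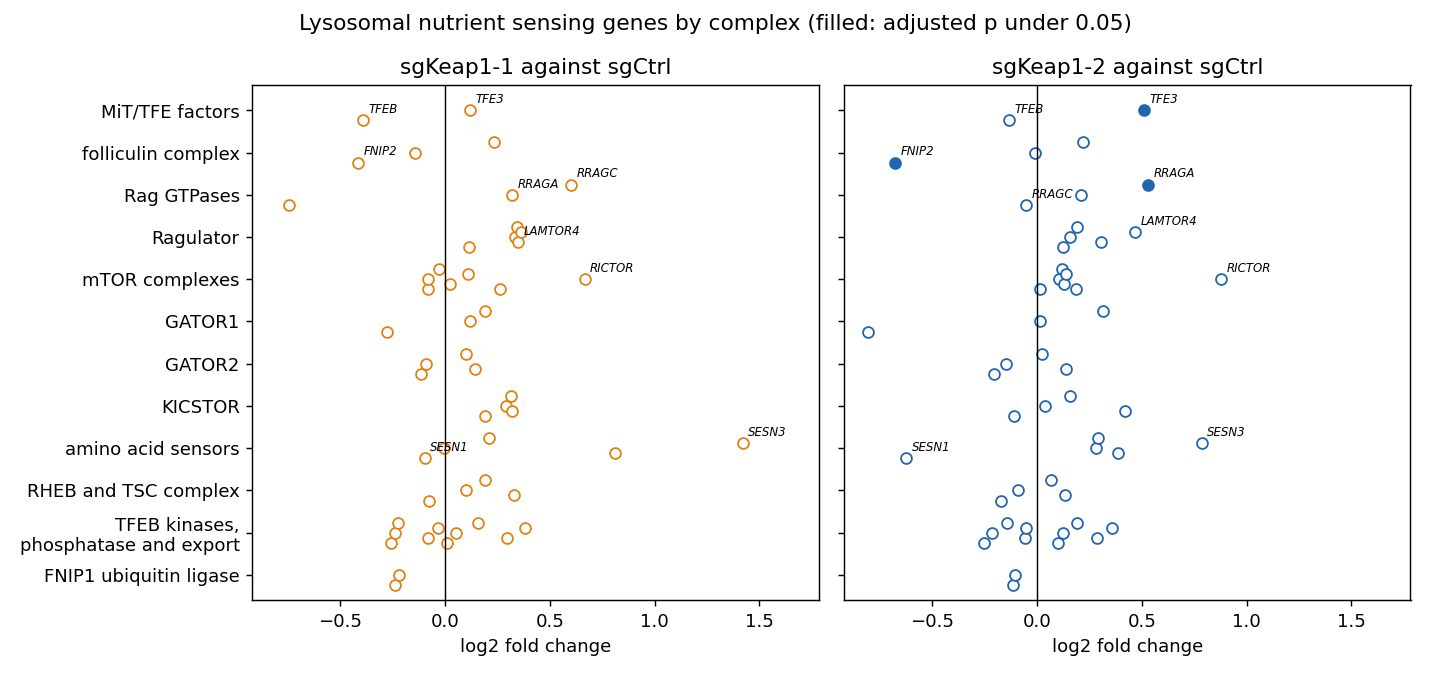
Log2 fold change (x axis) of each tested gene of the pathway, members included, by complex (y axis), for sgKeap1-1 and sgKeap1-2 against sgCtrl, with filled points where the adjusted p was under 0.05. The only filled points are the members TFE3, FNIP2 and RRAGA with sgKeap1-2.

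Genes known as targets of TFEB and TFE3 were listed as the readout of the factors at the mRNA level. Of 48 listed, 42 were tested. With sgKeap1-1, 4 (9.52%) rose and 0 fell, where 2.8% of all features rose and 1.4% fell. With sgKeap1-2, 13 (31%) rose and 0 fell, where 5.96% of all features rose and 4.85% fell. Both counts include GPNMB, which passed the filter through the groups where it is high. The listed targets had a median log2 fold change of 0.34 and 0.40. In 18 of 42 (42.9%) all 6 KEAP1 guide libraries were above all sgCtrl libraries, as in 8.04% of all features. GPNMB is again among these 18. In 1 (PIP4P1) all were below, as in 6.74%. Between the guides 0 were called by edgeR, and 3 had an unadjusted p under 0.05, against 5.08% of all features. With the replicate block, 11 rose with sgKeap1-1, against 5.11% of all features, and 20 with sgKeap1-2, against 9.11%, GPNMB included in each. DESeq2 called 7 higher with sgKeap1-1, where it called 571 of all 11064 features in either direction. Without sgCtrl replicate 1, sgCtrl replicate 2, sgCtrl replicate 3 or sgKeap1-1 replicate 2 the sgKeap1-1 count was 2, and without sgKeap1-2 replicate 3 it was 9. In the same order, 278, 422, 287, 356 and 688 of all features were called in either direction, against 465 with all libraries. This list was drawn up with results of these libraries known and overlaps with lysosomal genes that the study examined, so its direction is not independent evidence.

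Among 16 lysosomal hydrolases, 2 rose with sgKeap1-1, where 2.8% of all features rose, and 7 with sgKeap1-2, where 5.96% rose. With the replicate block these counts were 7 (5.11% of all features) and 10 (9.11%). GLA, which removes terminal galactose from glycolipids, was at 13.5, 15.0 and 10.9 CPM in sgCtrl, 37.5, 34.9 and 37.9 with sgKeap1-1, and 46.2, 46.1 and 40.2 with sgKeap1-2. No library of GLA overlapped between sgCtrl and either guide, and the log2 fold changes were 1.49 (SE 0.18, adjusted p = 0.000135) and 1.75 (SE 0.18, adjusted p = 1.54e-05). HEXA, a subunit of the hexosaminidase that degrades gangliosides, rose by 0.56 (adjusted p = 0.0239) and 0.74 (adjusted p = 0.00211). The HEXA call with sgKeap1-1 was lost without sgCtrl replicate 1 (0.0950), 2 (0.0884) or 3 (0.0711) and without sgKeap1-1 replicate 2 (0.0905) or 3 (0.0791). GAA, the lysosomal glycogen-degrading enzyme, rose with sgKeap1-2 by 0.74 (adjusted p = 0.00317), and its value with sgKeap1-1 was 0.52 (adjusted p = 0.0542, with the block 0.0192). GALNS, a sulfatase of glycosaminoglycans, rose with sgKeap1-2 by 1.11 (adjusted p = 0.00466). CTSA (protective protein cathepsin A) and PSAP, the precursor of the saposins that help sphingolipid enzymes, rose with sgKeap1-2 by 0.65 (adjusted p = 0.00311) and 0.56 (adjusted p = 0.00891). With the block, GALNS (adjusted p = 0.0228), CTSA (0.0105) and PSAP (0.0321) were also called with sgKeap1-1.

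Among 17 membrane proteins and V-ATPase subunits, 0 were called with sgKeap1-1 (4.2% of all features), 4 had an unadjusted p under 0.05 with that guide (15% of all features), and 4 rose with sgKeap1-2 (5.96% of all features). With the replicate block, 2 rose with sgKeap1-1 (5.11% of all features), LAMP1 among them (block adjusted p = 0.0348), and 6 with sgKeap1-2 (9.11%). The 4 called with sgKeap1-2 without the block were ATP6V1E1 (0.68, adjusted p = 0.0026), ATP6V0A1 (0.69, adjusted p = 0.0203) and ATP6V0E1 (0.54, adjusted p = 0.0114), all subunits of the proton pump that acidifies the lysosome, and LAMP1 (0.42, adjusted p = 0.0421), a major lysosomal membrane glycoprotein. The ATP6V0A1 call was lost without sgCtrl replicate 1 (0.0638) or 2 (0.0835) or sgKeap1-2 replicate 2 (0.0718), and that of ATP6V0E1 without sgCtrl replicate 3 (0.0738). LAMP1 kept its call only without sgKeap1-1 replicate 2 or sgKeap1-2 replicate 2, and its adjusted p without any other library was 0.0549 to 0.1499. Among 9 autophagy and other targets, SQSTM1 and GPNMB were called higher with each guide, against the same 2.8% and 5.96% of all features, and 7 were not called. The GPNMB calls rest on control counts at the floor, as given below. The block called 2 higher with sgKeap1-1 and 4 with sgKeap1-2, GPNMB included in each, against 5.11% and 9.11% of all features. SQSTM1, the autophagy receptor p62, was at 169.1, 207.9 and 182.4 CPM in sgCtrl, 401.2, 540.3 and 342.1 with sgKeap1-1, and 550.1, 699.2 and 534.2 with sgKeap1-2. Its log2 fold changes were 1.20 (adjusted p = 0.000638) and 1.67 (adjusted p = 1.9e-05), and SQSTM1 is also a known direct target of NRF2. GPNMB, a lysosome-associated glycoprotein often used as a TFE3 readout, had 3, 1 and 2 reads in the sgCtrl libraries, 10, 20 and 12 with sgKeap1-1, and 20, 20 and 15 with sgKeap1-2. It was called with adjusted p = 0.0191 and 0.00201 from edgeR, and no fold is given because the control counts are at the floor. Its call with sgKeap1-1 was lost without sgCtrl replicate 1 (0.0574), 2 (0.0668) or 3 (0.0845) or sgKeap1-1 replicate 2 (0.0855).

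**Figure D4:**
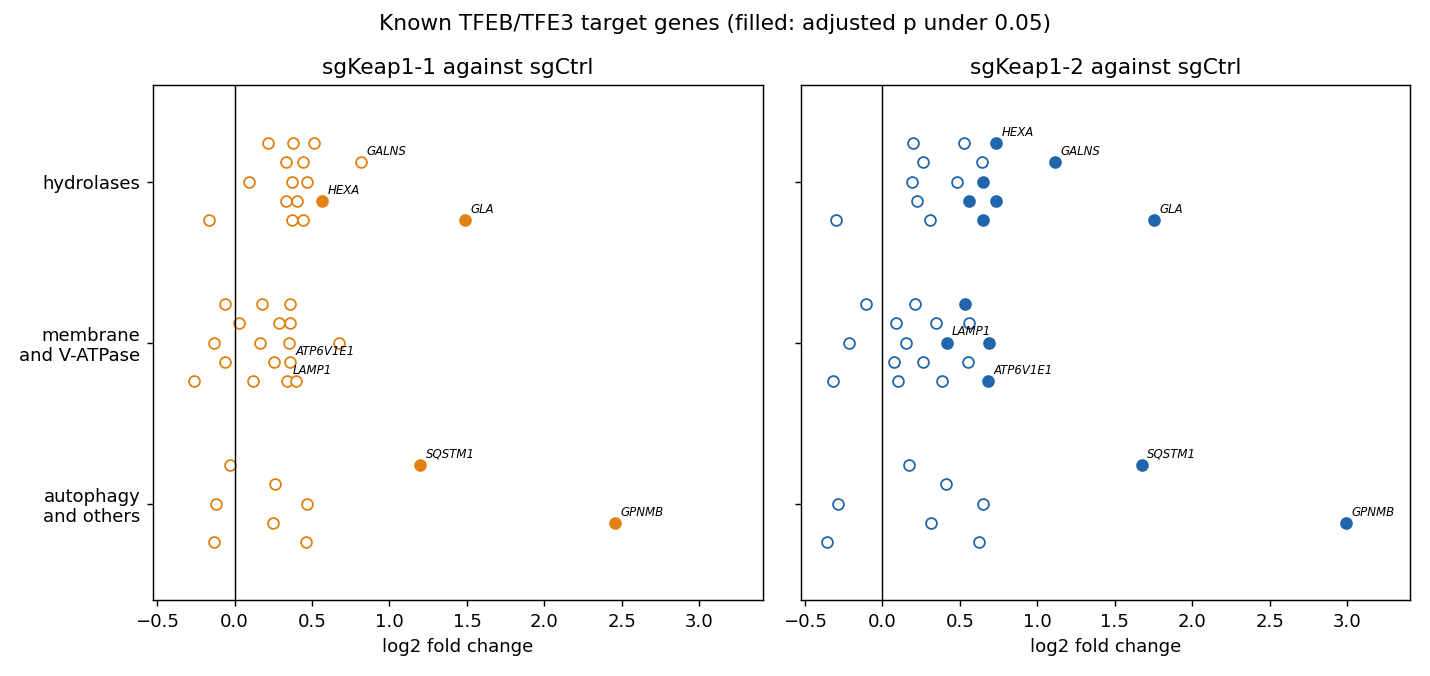
Log2 fold change (x axis) of the 42 tested TFEB/TFE3 targets in 3 groups (y axis) for sgKeap1-1 and sgKeap1-2 against sgCtrl, with filled points where the adjusted p was under 0.05. Of the filled points, 4 with sgKeap1-1 and 13 with sgKeap1-2, all lie to the right of 0. The GPNMB points rest on 1 to 3 control reads per library, so their positions are not exact folds.

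The genes whose log2 CPM followed a member most closely over the 9 libraries were found among about 7951 genes with a mean of at least 50 counts, by Pearson correlation, as a description of libraries that share 3 groups. For TFE3 they were MGAT4B (r = 0.96), RAC1 (0.95) and TMED3 (0.95). For FLCN they included SIN3A (0.97) and PSMB4 (0.93). For TFEB they were MBD2 (0.88), MRPL1 (0.87) and ATF7IP (0.86).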

How the data were processed

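RNA of 9 HepG2 libraries (3 groups of 3) was counted by QuantSeq. The authors deposited whole-number read counts per Entrez gene, not normalized. Per the labels, the submitters' processing notes name FastQC 0.72, cutadapt 1.16, STAR 2.7.5b, featureCounts 1.6.3, limma 3.40.6 and hg38, whereas the study's methods name GRCh37 (hg19), so the build is unsettled. Every feature already exceeded 0.5 CPM in at least 3 libraries, so lower genes are not analysed here. Rows without a gene number (1052 of 12798, 1.34% of reads) were left out of library sizes and tests. All 9 sample columns were mapped and 0 were left over.

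Features passing filterByExpr were scaled by TMM and tested with edgeR 4.0.16 (R 4.3.3, robust quasi-likelihood, group as the only factor). Each guide against sgCtrl and the guides against each other came from one fit of 3 groups, and both guides joined came from a fit of 2 groups. Adjusted p is Benjamini-Hochberg over all features. SE is the size of the log2 change over the root of F. Tests were checked on simulated data. Same-numbered libraries share a prefix in their descriptions, which was taken to mark a shared set. The correlation of their deviations from group means averaged 0.23 over 9 pairs (lowest -0.01, highest 0.52), against -0.12 over 18 other pairs. Deviations sum to 0 within a group, so the second average follows largely from the first and is no separate evidence of pairing. Pairs of replicate 2 were at 0.34 to 0.52, of replicate 1 at -0.01 to 0.23 and of replicate 3 at 0.16 to 0.21. Each test was repeated with the number as a block. Same-group libraries differed beyond sampling noise (chi-square per degree of freedom 4.63 to 24.1), so none was a copy.

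Alternatives were the block, DESeq2 1.42.0 size factors, library size only, limma-voom (limma 3.58.1), the DESeq2 Wald test, no filter, 10 or more counts per library, a fit of the 2 compared groups alone, and leaving out each library. Keeping rows without a gene number and leaving out replicate 2 were added after seeing the data. Members, lists and tests were chosen with earlier results of these data known. Named were all members, KEAP1, and from each list the called genes, at most 6 by smallest p in the joint contrast. For FLCN, 1 of the genes most alike in pattern is not reported here.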

Additional observations from a re-analysis of the deposited data

How the results depend on the processing

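Over the 8 members, the 4 comparisons and every alternative, 600 values were computed: 564 kept their direction and side of the threshold, 24 lost a call, 0 gained one and 12 changed sign. The sign changes were in FLCN, FNIP1, RRAGC and MTOR, none of them called. The replicate block changed no member's call, and adjusted p for TFE3, FNIP2 and RRAGA with sgKeap1-2 was 0.0229, 0.00125 and 0.00283 under that pairing. Block counts for the pathway and target lists stand in the report. With only the 2 groups in the fit, TFE3 with sgKeap1-2 was 0.51 and not called. Without all 3 replicate 2 libraries, TFE3 with sgKeap1-2 was 0.46 and RRAGA with both guides 0.43, neither called, FLCN between the guides was 0.030, and 1 member was called with both guides. The cause was not tested, but fewer samples entered these fits.

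With each library left out in turn, or all of replicate 2, 0 to 3 members were called with sgKeap1-2 and 0 to 2 with both guides. Of all features, 764 to 1291 and 607 to 1259 were called in these fits. The log2 fold change with sgKeap1-2 ranged from 0.45 to 0.57 for TFE3, from -0.84 to -0.54 for FNIP2 and from 0.45 to 0.60 for RRAGA. With both guides it ranged from -0.62 to -0.46 for FNIP2 and from 0.37 to 0.47 for RRAGA. Ranges that crossed 0 were -0.13 to 0.14 for FLCN between the guides, -0.44 to 0.062 (sgKeap1-1), -0.12 to 0.094 (sgKeap1-2), -0.073 to 0.44 (between the guides) and -0.22 to 0.020 (both) for FNIP1, -0.30 to 0.16 for RRAGC with sgKeap1-2, -0.10 to 0.16 (sgKeap1-1) and -0.018 to 0.26 (both) for MTOR, and -0.12 to 0.11 for KEAP1 with sgKeap1-2. RRAGC and TFEB had at most 40 and 51 reads per library, and 3 libraries a group limit every member.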
